A study of Mus musculus with 2 samples.

Results

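The genes described here are 115 adhesion genes of neural tissue and of cell junctions, out of 33038 genes listed in either count table. They were taken as every gene with a row in both tables whose symbol belongs to the contactins (Cntn) and contactin-associated genes (Cntnap), neurexins (Nrxn), neuroligins (Nlgn), Ncam, Cadm, Dscam, the IgLON genes Lsamp, Ntm, Opcml and Negr1, the numbered cadherins (Cdh) or the protocadherins (Pcdh). A further 8 matching genes had a row in 1 table only. RNA was measured cell by cell in dissociated pancreatic islets of untreated male C57BL/6J mice aged 8 weeks, by RevGel-seq, in which a cell is tied to a barcoded bead and lysed in a gel. The 2 libraries were technical replicates of the same preparation, called library 1 and library 2, so the spread between them holds no difference between animals, and each p-value below measures only the spread between such libraries.

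Adhesion molecules of these families sit in the cell membrane and bind partners on the next cell. Neurexins and neuroligins hold the presynaptic and postsynaptic sides of a synapse together, contactins and IgLON proteins are immunoglobulin proteins anchored to the outer membrane, and cadherins and protocadherins bind through repeated calcium-dependent domains. Islet endocrine cells share many such molecules with neurons, and E-cadherin, N-cadherin and Ncam1 are known to shape how islet cells sort and couple. Endothelial cells use a set of their own, led by VE-cadherin (Cdh5).

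Library 1 held 735 cells and 15931154 transcripts counted once each by a molecular identifier (UMIs), and library 2 held 748 cells and 17440292 UMIs. Cells were grouped by which of insulin (Ins1 and Ins2 together), Gcg, Sst and Ppy made up at least 1% of their UMIs, so the adhesion genes had no part in forming the groups. The 8 groups compared ranged from 23 to 190 cells per library, the smallest being Sst only with 35 and 23 cells, and cells with Gcg and Sst (12 and 17) entered no comparison. Adjusted p-values are from edgeR's quasi-likelihood test over all genes, and a log2 difference is the group named first minus the group named second. A level is given as UMIs per 1000000 UMIs outside the 5 hormone genes, first for library 1 and then for library 2. Of the marker lists, 7 of 8 beta markers were higher in insulin only cells, 6 of 8 alpha markers in Gcg only cells and 5 of 7 tested delta markers in Sst only cells than in each other group with a single hormone. Pdx1 stood in both the beta and the delta list. Being higher in insulin only cells, it could not be so in Sst only cells. Summed endothelial markers stood at 611 in Sst only cells of library 1 and 50.3 in those of library 2, against 6940 and 8744 in hormone-free cells, which bears on Pcdh17 and Cdh5 below. The tables hold counts per gene and not per length, so levels are compared between groups and not between genes.

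The summed level of the adhesion genes was highest in Sst only cells. Summed over the 115 genes, the level was 3569 ± 215 (SD, n = 2) in Sst only cells, 2036 ± 59.1 in Ppy only cells, 1981 ± 88.0 in insulin only cells and 1723 ± 7.90 in Gcg only cells. Hormone-free cells held 1303 in library 1 and 2234 in library 2, the widest gap between the libraries. The median number of adhesion genes with a UMI was 15 per Sst only cell, 13 per Ppy only cell, 10 per insulin only cell, 9 per Gcg only cell and 4 per hormone-free cell. These numbers were not matched for depth. Median UMIs outside the hormone genes were 11742 and 12275 in Sst only, 18605 and 20180 in Ppy only and 11753 and 10187.5 in insulin only cells. They were 12693 and 14559.5 in Gcg only and 13153 and 14926.5 in hormone-free cells. The classical and other cadherins made up 887 ± 16.8 of the level in Sst only cells and 281 ± 15.4 in Gcg only cells. The contactins and contactin-associated genes stood at 172 ± 2.40 in Ppy only cells and 161 ± 19.7 in insulin only cells, and at 23.1 ± 7.38 in Gcg only cells.

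**Figure D1:**
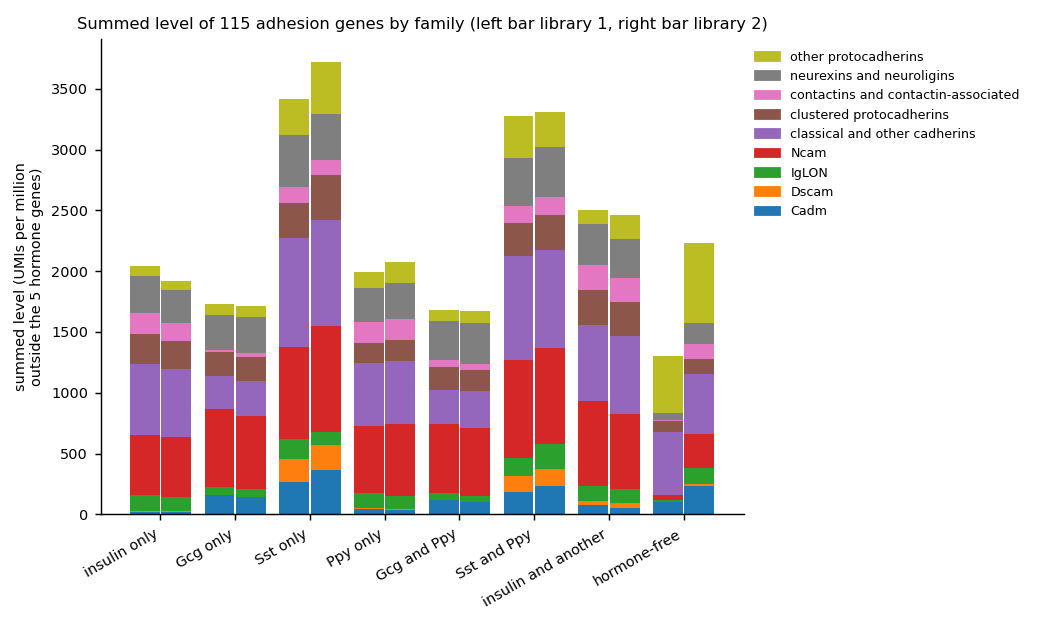
Summed level of the 115 adhesion genes in UMIs per 1000000 outside the 5 hormone genes, stacked by gene family, with library 1 as the left bar and library 2 as the right bar of each group. Sst only cells reach 3417 and 3721, above the other groups with a single hormone in both libraries, and the 2 bars of hormone-free cells differ most.

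For 54 of the 115 genes the counts passed the filter on low counts, among 14528 genes tested, and the other 61 had between 2 and 274 UMIs in all. Because a gene passes that filter through the group where it is high, the counts below describe the tested genes only. Of the 54, 27 were called in at least 1 of the 6 comparisons between groups with a single hormone at an edgeR adjusted p of 0.05, beside 39.3% of all genes tested. The calls held 5 of 6 tested neurexins and neuroligins, 4 of 4 contactins and contactin-associated genes, 2 of 2 IgLON genes, 7 of 9 cadherins, 4 of 7 protocadherins outside the clusters and 2 of 21 clustered protocadherins.

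The direction of the calls was uneven where Sst only cells took part. Against Gcg only cells, 18 adhesion genes were higher in Sst only cells and 2 were lower, where 6.81% and 6.02% of all genes were called that way (12.8% in either direction). Against insulin only cells, 15 were higher in Sst only cells and 3 lower, with 7.32% and 7.39% of all genes (14.7%). Against Ppy only cells, 9 were higher in Sst only cells and 2 lower, with 4.95% and 4.52% of all genes (9.47%). Insulin only and Gcg only cells differed in both directions, with 12 genes higher in insulin only cells (12.9% of all genes called) and 8 higher in Gcg only cells (12.7%, and 25.6% either way). Ppy only cells had 9 genes higher and 7 lower than insulin only cells (10.6% and 10.2% of all genes, 20.7% in all), and 9 higher and 3 lower than Gcg only cells (5.09% and 4.78%, 9.86% in all).

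**Figure D2:**
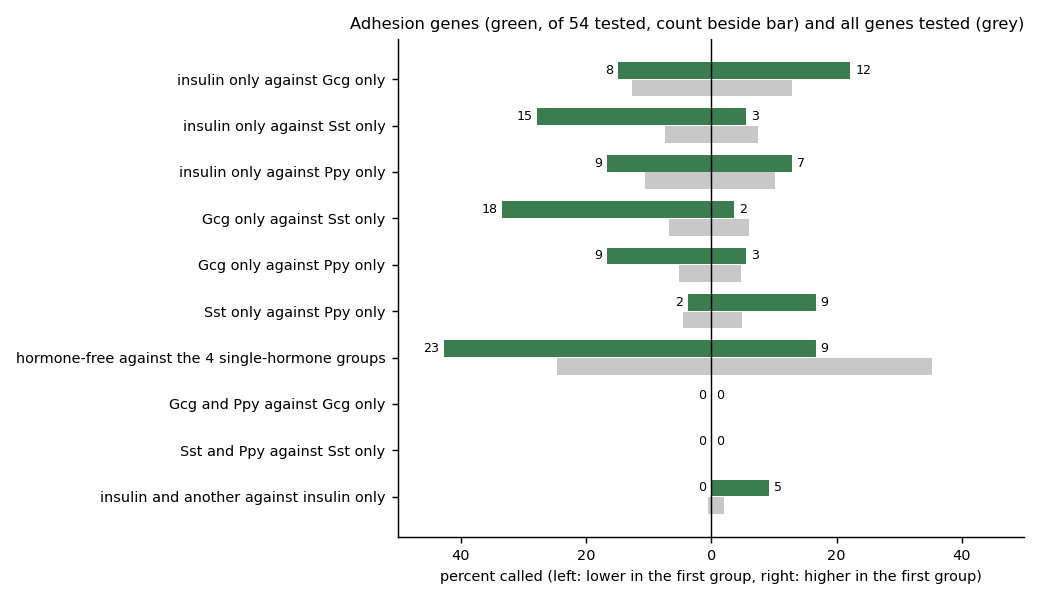
Percent of genes called in each comparison at an edgeR adjusted p of 0.05, green for the 54 adhesion genes tested (their count is printed beside the bar) and grey for all 14528 genes. Bars to the right are higher in the group named first, and bars to the left lower. Gcg only against Sst only shows 18 genes to the left and 2 to the right.

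Taken against every other group with a single hormone at once, 6 adhesion genes were highest in Sst only cells (Cadm1, Cdh2, Cdh8, Dscam, Ncam2 and Pcdh9, with 1.95% of all genes called so), 3 in insulin only cells (Cdh7, Cntnap2 and Negr1, with 3.57%), 1 in Gcg only cells (Nlgn2, with 1.83%) and 1 in Ppy only cells (Cntnap5b, with 0.881%). Lower than in each other group were 5 genes in insulin only cells (Cadm1, Cntnap5b, Nlgn1, Nrxn2 and Pcdh9, with 2.51% of all genes) and 5 in Gcg only cells (Cdh1, Cdh2, Cdh4, Dscam and Ntm, with 1.22%). No adhesion gene was lower than in each other group in Sst only or Ppy only cells, where 1.09% and 0.427% of all genes were. The count for Sst only cells rested on the scaling and the grouping: it was 12 with all UMIs as the library size and no TMM factors, 3 with a hormone threshold of 0.5%, and 2 with 23 cells in each sum. That scaling moved the median log2 difference of all genes to -0.34 for insulin only against Gcg only, -0.69 for insulin only against Sst only, -0.32 for Gcg only against Sst only and 0.53 for Sst only against Ppy only cells.

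The sequence around the start of transcription is shown for Cdh7, Nlgn2, Dscam and Cntnap5b, each highest in 1 group and entered among the promoters at hand, and for Cdh9, which shares a motif with Cntnap5b. Sequences are from RefSeq on GRCm38.p6, 300 bases from 250 before the start to 50 after it, 5′ to 3′ on the strand of the gene. Capitals mark matches on either strand to a short list of letters. The list held the TATA box as TATAAA, E-boxes written CAGATG and CAGCTG, and homeodomain sites written TAATTA. Also searched were forkhead sites as TGTTTAC, the left part of the site of REST (a repressor of neuronal genes) as TTCAGCACC, ETS sites as ACCGGAAG and GC boxes as GGGCGG. Cdh7 lies at chr1:109982650-109982949 on the plus strand (the upstream of 3 entries), Nlgn2 at chr11:69837735-69838034 on the minus strand, Dscam at chr16:97170686-97170985 on the minus strand, Cntnap5b at chr1:99772151-99772450 on the plus strand and Cdh9 at chr15:16728665-16728964 on the plus strand.
Cdh7: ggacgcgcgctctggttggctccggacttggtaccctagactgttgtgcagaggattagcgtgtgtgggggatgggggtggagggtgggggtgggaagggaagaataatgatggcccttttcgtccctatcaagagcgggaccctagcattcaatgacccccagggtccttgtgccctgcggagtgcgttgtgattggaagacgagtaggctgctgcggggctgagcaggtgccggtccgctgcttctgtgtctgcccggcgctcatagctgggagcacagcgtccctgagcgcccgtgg
Nlgn2: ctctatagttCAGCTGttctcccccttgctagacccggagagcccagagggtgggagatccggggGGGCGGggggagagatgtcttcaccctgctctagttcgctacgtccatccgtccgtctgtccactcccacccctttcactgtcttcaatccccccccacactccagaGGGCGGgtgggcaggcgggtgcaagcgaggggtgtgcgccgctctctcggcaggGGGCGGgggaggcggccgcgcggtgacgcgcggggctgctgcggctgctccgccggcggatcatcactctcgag
Dscam: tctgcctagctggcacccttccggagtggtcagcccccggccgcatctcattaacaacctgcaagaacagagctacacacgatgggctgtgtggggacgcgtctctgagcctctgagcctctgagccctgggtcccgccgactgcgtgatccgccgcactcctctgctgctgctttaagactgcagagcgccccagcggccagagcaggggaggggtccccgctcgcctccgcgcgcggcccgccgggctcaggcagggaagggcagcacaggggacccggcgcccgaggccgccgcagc
Cntnap5b: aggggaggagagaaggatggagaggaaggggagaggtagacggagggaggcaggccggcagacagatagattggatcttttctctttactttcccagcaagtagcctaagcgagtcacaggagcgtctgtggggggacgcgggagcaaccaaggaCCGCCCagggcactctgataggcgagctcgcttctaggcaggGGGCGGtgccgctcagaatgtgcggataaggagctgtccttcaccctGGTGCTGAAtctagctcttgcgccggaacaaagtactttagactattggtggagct
Cdh9: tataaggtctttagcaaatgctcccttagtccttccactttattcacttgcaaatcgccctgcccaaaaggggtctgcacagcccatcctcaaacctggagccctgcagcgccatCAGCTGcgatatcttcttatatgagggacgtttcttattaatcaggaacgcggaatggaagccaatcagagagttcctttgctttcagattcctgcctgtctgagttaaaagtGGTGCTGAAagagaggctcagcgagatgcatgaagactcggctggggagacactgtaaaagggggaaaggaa
The windows printed for Cdh7 and Dscam held none of these letters, while the third Cdh7 entry held CAGATG 175 bases and TAATTA 102 bases before its start, and Nlgn2 held 3 GC boxes and 1 E-box. The letters TTCAGCACC stood on the minus strand 6 bases before the start of Cntnap5b and 22 bases before that of Cdh9, and on the plus strand 153 bases before a second start of Nlgn1. Promoter entries were found for 21 of the 54 tested genes, with 31 windows, of which 3 (9.68%) held TTCAGCACC, against 122 of 32851 windows of all genes (0.371%). Over the windows of tested and untested adhesion genes it was 3 of 49 (6.12%). GC boxes stood in 38.7% of the 31 windows and in 35.7% of all. Each other motif searched stood in a smaller share of the 31 windows than of all, such as CAGATG in 3.23% and 17.2% and CAGCTG in 9.68% and 16.3%. The median number of CpG pairs was 14 in the 31 windows and 7 over all. A match describes the letters and was not tested as a site.

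Neurexins and neuroligins differed between the endocrine groups gene by gene. Nrxn2, a presynaptic receptor, stood at 1.11 and 1.68 in insulin only cells, 23.6 and 25.9 in Gcg only cells, 87.9 and 60.3 in Sst only cells and 31.8 and 36.9 in Ppy only cells. Insulin only cells lay below the other groups in both libraries, with a log2 difference of -4.06 ± 0.77 (SE) from Gcg only cells (adjusted p = 0.000746). Nrxn3, of the same family, was called in none of the 6 comparisons, with levels from 26.7 to 43.0 over the 4 groups and both libraries.

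Nlgn2, the neuroligin of inhibitory synapses, stood at 149 and 144 in Gcg only cells. It was at 45.0 and 38.7 in insulin only cells, 68.1 and 23.5 in Sst only cells and 55.9 and 78.6 in Ppy only cells, so that no library of another group reached Gcg only cells. The log2 difference was -1.78 ± 0.22 (adjusted p = 1.13e-05) for insulin only against Gcg only cells. It was 1.68 ± 0.30 (adjusted p = 0.000813) for Gcg only against Sst only and 1.12 ± 0.22 (adjusted p = 0.00342) for Gcg only against Ppy only cells. Nlgn1, known from excitatory synapses, was lowest in insulin only cells at 3.32 and 3.37, against 18.9 and 17.6 in Ppy only cells, a log2 difference of -2.38 ± 0.40 (adjusted p = 0.000317). Its levels were 8.76 and 9.92 in Gcg only cells and 22.0 and 30.2 in Sst only cells, and its call between these (adjusted p = 0.0427) was lost with the library as a replicate block (0.057). Nlgn3 had 21 UMIs in Ppy only cells and 3 in Gcg only cells, a ratio of levels of 13.3 with a 95% counting interval of 3.97 to 69.6 (adjusted p = 0.0312).

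Contactins and their partners split insulin only cells from Gcg only cells. Cntn1, an anchored immunoglobulin protein of axons, stood at 93.7 and 69.5 in insulin only cells and at 0 and 2.48 in Gcg only cells, a log2 difference of 5.93 ± 1.07 (adjusted p = 0.000477). Sst only cells held 37.4 and 43.6 of Cntn1 and Ppy only cells 10.3 and 2.93. Cntnap2, which groups potassium channels along axons, was at 72.3 and 71.6 in insulin only cells, 26.4 and 13.4 in Sst only cells, 1.90 and 3.54 in Gcg only cells and 3.44 and 0 in Ppy only cells. The groups did not overlap with insulin only cells, and the log2 difference against the nearest, Sst only cells, was 1.91 ± 0.54 (adjusted p = 0.0248). With all UMIs as the library size that difference was 1.197 and was not called (adjusted p = 0.109). Without the 3 cells of most Cntnap2 UMIs in each group and library it was 4.27. Cntnap2 lies on chromosome 6 from 45059357 to 47304213 (GRCm38), where 24 other annotated genes overlap it on its strand, which makes its count uncertain.

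Cntnap5b was highest in Ppy only cells and lowest in insulin only cells. It stood at 139 and 152 in Ppy only cells, 28.6 and 53.6 in Sst only cells, 6.09 and 14.2 in Gcg only cells and 0.738 and 0.842 in insulin only cells, where 4 UMIs were counted in 372 cells. No 2 of these groups overlapped. The log2 difference was -1.996 ± 0.44 (adjusted p = 0.00642) for Sst only against Ppy only cells. With every cell drawn down to 4000 UMIs that were not of hormones, a UMI of Cntnap5b was found in 19 of 54 and 32 of 68 Ppy only cells (35.2% and 47.1%, from 72.2% and 79.4% unthinned) and in 0 of 91 and 1 of 92 hormone-free cells. Median depth outside the hormone genes was 18605 and 20180 UMIs in Ppy only cells and 13153 and 14926.5 in hormone-free cells. Cntn3 rested on few molecules, with 14 UMIs in library 1 and 1 in library 2 of Sst only cells.

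The IgLON gene Negr1 was highest in insulin only cells, and Ntm was lowest in Gcg only cells. Negr1 stood at 110 and 93.1 in insulin only cells, 60.6 and 64.8 in Gcg only cells, 57.1 and 36.9 in Sst only cells and 36.1 and 28.7 in Ppy only cells. It was higher in insulin only cells than in Gcg only cells by 0.72 ± 0.19 on the log2 scale (adjusted p = 0.0101), a call that was lost with all UMIs as the library size (0.38, adjusted p = 0.143). Ntm in Gcg only cells was at 1.52 and 3.54, and stood at 108 and 67.0 in Sst only cells, 90.2 and 80.3 in Ppy only cells and 11.4 and 25.3 in insulin only cells. The groups of Ntm did not overlap except Sst only with Ppy only cells, and the log2 difference between insulin only and Gcg only cells was 2.81 ± 0.50 (adjusted p = 0.000419). Both are anchored to the outer membrane of neurons. Lsamp and Opcml did not pass the filter.

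**Figure D3:**
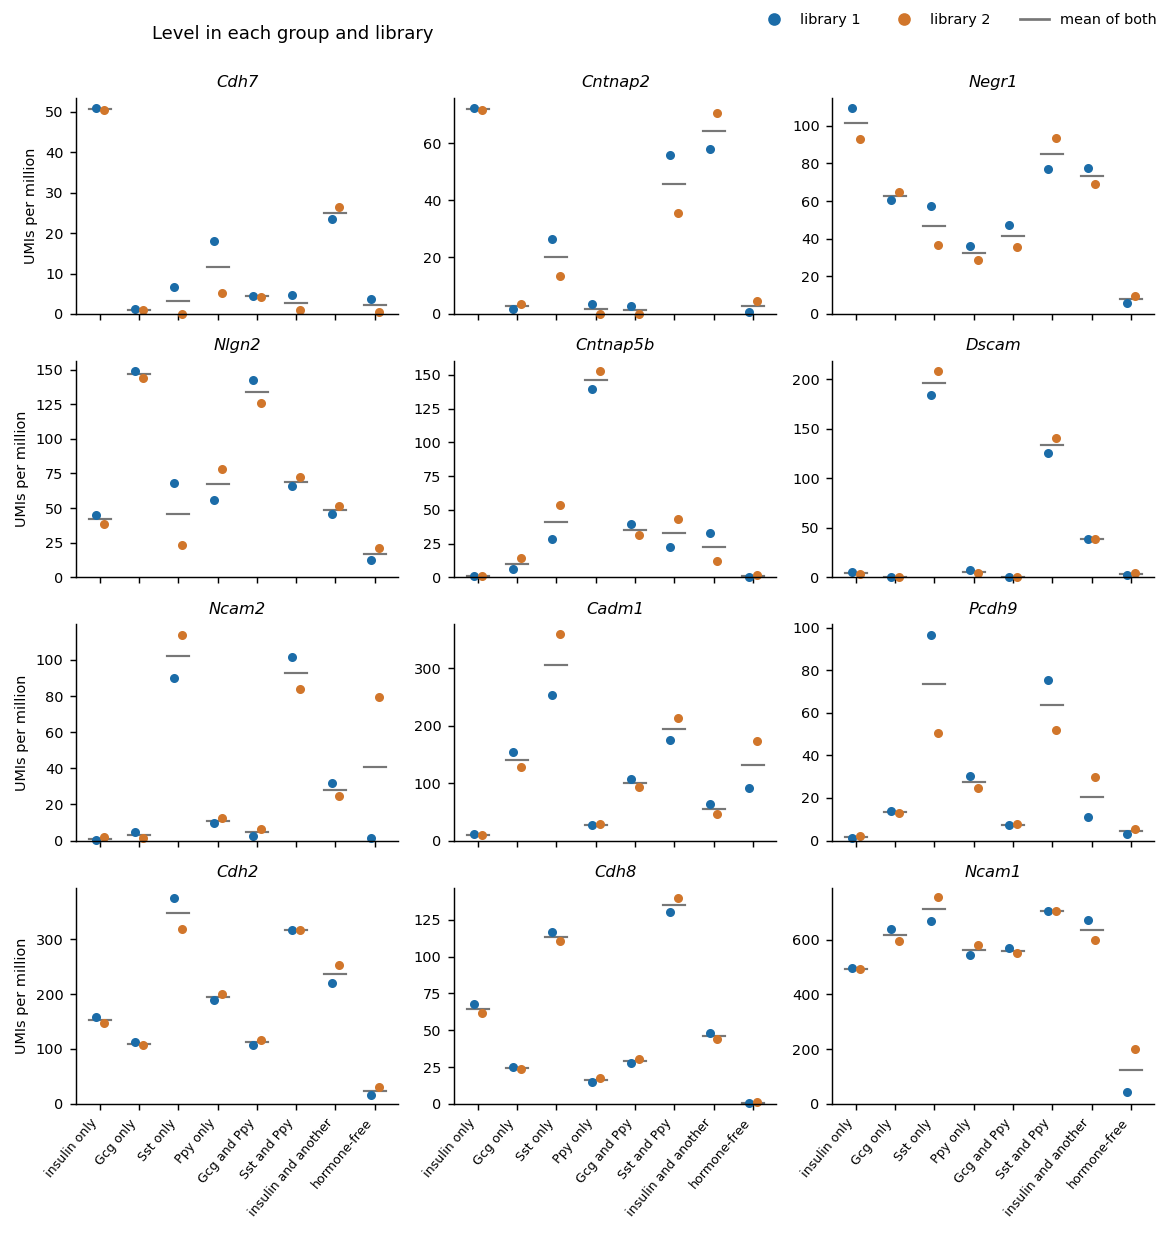
Level of 12 adhesion genes in each group, in UMIs per 1000000 outside the 5 hormone genes, with a point per library and a grey line at their mean; each axis starts at 0 and has its own scale. Dscam reaches 185 and 208 in Sst only cells and is at 6.88 or less in the other groups with a single hormone, while Ncam1 lies between 492 and 754 in all of them.

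Ncam1 was shared by all endocrine groups and Ncam2 was not. Ncam1, the neural cell adhesion molecule, stood at 495 and 492 in insulin only cells, 639 and 596 in Gcg only cells, 668 and 754 in Sst only cells and 545 and 581 in Ppy only cells, and it was called in none of the 6 comparisons. Against Sst only cells the log2 difference was -0.39 ± 0.35 (adjusted p = 0.539) and reached the threshold only with all UMIs as the library size (-1.10, adjusted p = 0.0244). Ncam2 stood at 90.1 and 114 in Sst only cells, 9.45 and 12.3 in Ppy only cells, 4.95 and 1.42 in Gcg only cells and 0.369 and 1.68 in insulin only cells. Sst only cells were thus apart from the rest, by 3.08 ± 0.90 on the log2 scale against Ppy only cells (adjusted p = 0.0387). DESeq2 gave that difference an adjusted p of 0.0952, and the hormone threshold of 0.5% one of 0.0881.

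Cadm1, which bridges synapses and epithelial cells by binding itself, ranked the groups in a wide order. It stood at 253 and 359 in Sst only cells, 154 and 127 in Gcg only cells, 27.5 and 28.1 in Ppy only cells and 10.7 and 10.1 in insulin only cells, and no 2 groups overlapped. The log2 difference between insulin only and Gcg only cells was -3.72 ± 0.30 (adjusted p = 6.25e-08). That between Gcg only and Sst only cells was -0.99 ± 0.25 (adjusted p = 0.0115) and was not called with a hormone threshold of 0.5% (-0.82, adjusted p = 0.0597). After thinning, a UMI of Cadm1 was found in 41.2% and 32.8% of Gcg only cells, in 3.30% and 1.59% of insulin only cells and in 65.7% and 60.9% of Sst only cells, with unthinned shares of 76.4% and 71.3%, 8.24% and 7.89%, and 85.7% and 95.7%.

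Dscam, which lets branches of the same neuron avoid each other, was highest in cells with Sst. It had 84 and 62 UMIs in Sst only cells, a level of 185 and 208, against 5.54 and 3.37 in insulin only cells, 6.88 and 4.10 in Ppy only cells and 0.381 and 0.708 in Gcg only cells, where 3 UMIs were counted in 356 cells. The ratio of levels between Sst only and Gcg only cells was 352, with a 95% counting interval of 118 to 1727, and the adjusted p was 6.52e-10. The log2 difference was -5.28 ± 0.30 (adjusted p = 3.71e-09) for insulin only against Sst only cells and 5.09 ± 0.33 (adjusted p = 3.68e-08) for Sst only against Ppy only cells. A UMI of Dscam was found in 26 of 35 and 17 of 23 Sst only cells, and after thinning in 16 of 35 (45.7%, Clopper-Pearson interval 28.8% to 63.4%) and 10 of 23 (43.5%, 23.2% to 65.5%). In hormone-free cells thinned in the same way it was found in 1 of 91 and 0 of 92. Intervals cover counting error only. The smaller gap between insulin only and Gcg only cells (23 against 3 UMIs, ratio 8.22 with an interval of 2.48 to 42.7, adjusted p = 0.00146) was 0.00 on the log2 scale when 23 cells were summed per group and library.

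Classical cadherins were present throughout the endocrine groups and lowest in Gcg only cells. Cdh1, or E-cadherin, stood at 95.6 and 116 in Gcg only cells, against 259 and 238 in insulin only cells, 270 and 302 in Sst only cells and 226 and 227 in Ppy only cells. The other 3 groups lay between 226 and 302, and the log2 difference was 1.25 ± 0.16 (adjusted p = 1.73e-05) for insulin only against Gcg only cells. Cdh2, or N-cadherin, was also lowest there, at 112 and 108, and highest in Sst only cells, at 376 and 318, with 159 and 147 in insulin only cells and 189 and 200 in Ppy only cells. Its log2 difference was 0.74 ± 0.17 between Sst only and Ppy only cells (adjusted p = 0.0105), and was not called with a hormone threshold of 0.5% (0.52, adjusted p = 0.183) or with 23 cells per sum (0.72, adjusted p = 0.106). At 0.50 ± 0.16 between insulin only and Gcg only cells (adjusted p = 0.0298), it was lost with all UMIs as the library size, with a hormone threshold of 0.5% and without doublets. Cdh4, or R-cadherin, followed the same order at lower levels, with 8.00 and 7.79 in Gcg only cells, 12.5 and 24.4 in insulin only cells, 40.4 and 39.9 in Ppy only cells and 63.7 and 93.9 in Sst only cells. Its call between insulin only and Gcg only cells (1.23 ± 0.38, adjusted p = 0.0232) was lost with all UMIs as the library size (0.89, adjusted p = 0.0763), and the difference was 0.59 in library 1 alone.

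The type II cadherins Cdh7, Cdh8, Cdh9 and Cdh22 split the groups further. Cdh7 stood at 50.9 and 50.5 in insulin only cells, 18.0 and 5.28 in Ppy only cells, 6.59 and 0 in Sst only cells and 1.14 and 1.06 in Gcg only cells. The log2 difference against Ppy only cells was 2.23 ± 0.50 (adjusted p = 0.00406), and 3.09 in library 2 alone and 1.46 in library 1 alone, each with 1 added to the level. Cdh8 stood at 116 and 111 in Sst only cells and 67.5 and 61.9 in insulin only cells, a log2 difference of -0.68 ± 0.18 from insulin only to Sst only cells (adjusted p = 0.0188), not called without the filter on low counts (adjusted p = 0.232). Cdh22 shared that pair of groups, at 50.5 and 46.9 in Sst only cells and 30.6 and 36.2 in insulin only cells, and at 4.69 or less in the Ppy only and Gcg only cells. Cdh9 had the opposite pair, with 17.5 and 22.7 in Gcg only cells and 21.5 and 16.4 in Ppy only cells, against 0.369 and 0 in insulin only cells and no UMI in 58 Sst only cells. For Cdh9 the ratio of Gcg only to Sst only cells was thus at least 5.07, taken against 3 UMIs over the group.

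Among protocadherins outside the clusters, Pcdh9 was highest in Sst only cells. Pcdh9 stood at 96.7 and 50.3 in Sst only cells, 30.1 and 24.6 in Ppy only cells, 14.1 and 12.7 in Gcg only cells and 1.11 and 2.11 in insulin only cells, with no overlap between groups. Its log2 difference was -5.38 ± 0.52 (adjusted p = 1.35e-06) for insulin only against Sst only cells, and 3 cells held 44.1% of its UMIs in Sst only cells. Pcdh15, a part of the tip links of hair cells, stood at 130 and 302 in Sst only cells, 62.7 and 102 in Ppy only cells, 36.5 and 31.2 in insulin only cells and 17.9 and 9.21 in Gcg only cells, and was not called between Sst only and Ppy only cells (adjusted p = 0.127). Between insulin only and Gcg only cells it was called with the library as a replicate block (adjusted p = 0.0492, and 0.0732 without). Pcdh8 had 58 UMIs in Gcg only cells and 3 in insulin only cells, a ratio of 18.0 with a counting interval of 5.87 to 90.0 (adjusted p = 0.00391). Pcdh1, a protocadherin of epithelia, was called in none of the 6 comparisons, at 31.8 to 60.3 over the groups and libraries.

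The clustered protocadherins, which give single neurons a surface identity by combination, had 2 of 21 tested genes called between groups with a single hormone. Summed over 57 genes they reached 328 ± 57.2 in Sst only cells, 235 ± 13.1 in insulin only cells, 197 ± 0.743 in Gcg only cells and 172 ± 7.74 in Ppy only cells. Of the 21 tested, Pcdhgb5 was called between insulin only cells (25 UMIs) and Sst only cells (13 UMIs), and Pcdha8 between Gcg only cells (5 UMIs) and Sst only cells (8 UMIs). Both calls were lost with the library as a replicate block, from an adjusted p of 0.0367 to 0.0536 for Pcdhgb5 and from 0.0484 to 0.0748 for Pcdha8. Genes of the alpha and gamma clusters share their last exons, so the counts of each are uncertain.

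Cells with 2 hormones were set against cells with 1 of them. Cells with Gcg and Ppy (65 and 86 cells) had no adhesion gene called by edgeR against Gcg only cells, where 0.0275% and 0.00688% of all genes were called higher and lower (0.0344% in all). At an unadjusted p of 0.05, 5 of the 54 passed, as did 814 of the 14528 genes (5.6%), and DESeq2 called 2, Cntnap5b and Ntm. Cells with Sst and Ppy (77 and 71 cells) had none called against Sst only cells by edgeR or DESeq2 (0.0138% and 0.0% of all genes), with 5 at an unadjusted p of 0.05, as for 6.42% of all genes. Their levels of Dscam were 126 and 141, of Ncam2 101 and 84.1 and of Cdh8 130 and 140, each far above those of Ppy only cells. Their Cntnap5b, at 22.3 and 43.0, stayed below the 139 and 152 of Ppy only cells.

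Cells with insulin and another hormone (37 and 27 cells) had 5 adhesion genes higher than insulin only cells and none lower, where 2.06% and 0.489% of all genes were called so (2.55% in all). Cntnap5b stood at 33.2 and 12.4 (log2 difference 4.76 ± 0.77, adjusted p = 0.00164), Nrxn2 at 27.6 and 38.9 (4.48 ± 0.87, 0.00743) and Pcdh9 at 11.1 and 30.03 (3.56 ± 0.61, 0.00259). Cadm1 at 63.5 and 45.9 and Dscam at 38.7 and 38.9 were the other two. Each of these 5 genes was lower in insulin only cells than in Sst only cells. Of them, Cadm1, Cntnap5b, Nrxn2 and Pcdh9 were also lower there than in Gcg only and in Ppy only cells. Doublets called by Scrublet numbered 1 of 37 and 4 of 27 in this group, and the 5 calls held without them. With 23 cells per sum only Dscam was called. Markers of other lists were also higher in this group. The summed level of 8 delta markers, Pdx1 of the beta list among them, was 1917 and 1779, against 571 and 651 in insulin only cells. That of 8 alpha markers was 9855 and 9643, against 6596 and 6787, and that of 8 acinar markers 251 and 219, against 7.38 and 11.8. The acinar sum was also 312 and 154 in Sst only cells and 274 and 234 in cells with Sst and Ppy. At least 4 acinar markers were found in 0 of the 64 cells with insulin and another hormone. At least 4 delta markers were found in 21 of 64 cells, against 1 of 372 insulin only cells, and the part of these markers in the 5 calls was not tested.

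Hormone-free cells (91 and 92 cells) had 23 adhesion genes lower and 9 higher than the 4 groups with a single hormone on average, where 24.7% and 35.2% of all genes were called so (59.9% in all). The median log2 difference was -1.44 over the 54 genes and 0.12 over all genes tested. Without the filter on low counts 48 adhesion genes were called in either direction, against 32 with it. The split of these 48 by direction is not given here. Lowest relative to the endocrine groups was Cdh8, at 0.629 and 0.927 (log2 difference -5.41 ± 0.32, adjusted p = 2.89e-10), followed by Pcdha8, with no UMI in these cells, and Cntnap5b, at 0 and 1.39. Cdh2 fell by 2.76 ± 0.17 and Nlgn2 by 1.82 ± 0.24 on the log2 scale, both called. Ncam1 fell by 2.09 ± 0.32 (adjusted p = 2.48e-05), at 43.4 in library 1 and 201 in library 2. Without the pair of cells described below the log2 difference was -3.998 for Ncam1, -2.63 for Nlgn2 and 0.65 for Cadm1, in place of 1.32. Calling Pcdhgb5 lower here (adjusted p = 0.0372) failed with the replicate block (0.0515), which added Cdh7 as lower (adjusted p = 0.0588 without and 0.047 with the block).

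The 9 higher genes were Cadm1, Cdh17, Cdh5, Cntn1, Ncam2, Pcdh12, Pcdh17, Pcdh19 and Pcdhb7. Each was called against the average of the 4 groups, not against each of them. The summed Cadm genes stood at 97.5 and 235 in hormone-free cells, and at 80.1 in library 2 without the pair of cells described below. They stood at 268 and 365 in Sst only, 161 and 139 in Gcg only, 43.0 and 39.3 in Ppy only and 18.5 and 20.2 in insulin only cells. By lists of 8 markers, 27 and 32 hormone-free cells were endothelial-like, 41 and 40 leukocyte-like, 9 and 10 ductal-like and 7 and 2 stellate- and mural-like, with 7 and 6 unassigned and 2 further cells of library 2 described apart below. Cdh5, or VE-cadherin, stood at 535 and 571 in endothelial-like cells and had a UMI in each of them. In the whole hormone-free group its level was 146 and 208, with 681 UMIs against 31 in the 4 groups with a single hormone, a ratio of 82.9 with a counting interval of 57.9 to 123 (adjusted p = 2.87e-11). Pcdh17 followed it, at 1149 and 1342 in endothelial-like cells, again with a UMI in each, and at 6.27 or less in leukocyte-like, ductal-like and mural-like cells, with 302 in the unassigned cells of library 2. Pcdh12, an endothelial protocadherin, stood at 240 and 190 in the endothelial-like cells, with 257 UMIs against 21 over the 4 groups (ratio 46.2, interval 29.6 to 75.9).

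The few molecules of Pcdh17 and Cdh5 in endocrine groups lay in few cells. In Sst only cells Pcdh17 had 16 UMIs in library 1, all in 3 cells, and none in library 2, where the endothelial markers were also lower. Its calls for Sst only over insulin only cells (adjusted p = 0.0337) and over Ppy only cells (0.0451) rest on these 3 cells, and DESeq2 made neither. Cdh5 was in 2.86% and 4.35% of Sst only cells after thinning, and in 28.6% and 34.8% of hormone-free cells. The part of the endothelial markers in these values was not tested.

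Ductal-like cells carried Cdh17, or LI-cadherin, an epithelial cadherin of the gut, at 378 and 573, in 3 of 9 and 7 of 10 cells, and unassigned cells held 427 and 46.0. Cdh17 had 405 UMIs in hormone-free cells and 4 in the endocrine groups with a single hormone (ratio 382, interval 148 to 1410). Cdh1 was also high in ductal-like cells, at 824 and 741 with a UMI in each cell, and at 5.19 or less in leukocyte-like cells. Cadm1 stood at 114 and 166 in leukocyte-like cells and at 242 and 64.0 in ductal-like cells, while endothelial-like cells held 4.62 and 5.48. Pcdh19, a protocadherin known from neurons, had its 54 UMIs in hormone-free cells and none in the 4 groups, at least 68.0-fold higher when 3 UMIs over those groups are taken as the floor. In the 9 stellate- and mural-like cells its level was 276 and 623, in 3 of 7 and 2 of 2 cells, and DESeq2 did not call it (adjusted p = 0.214). Pcdhb7 was called at 3.14 and 4.63, against 0 in Sst only and 1.11 to 3.44 in the other groups, and was not called by DESeq2.

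**Figure D4:**
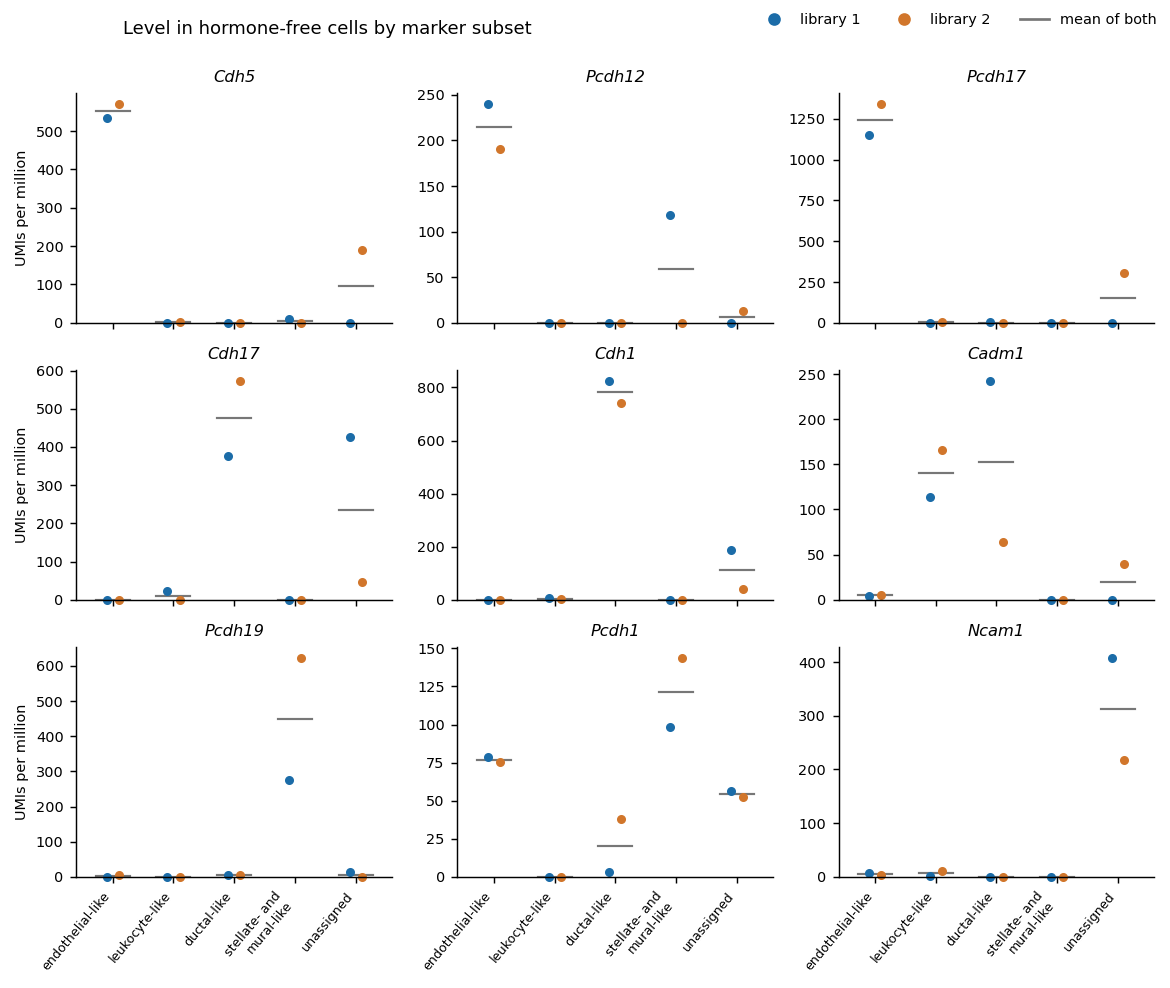
Level of 9 adhesion genes in hormone-free cells split by marker lists, in UMIs per 1000000 outside the 5 hormone genes, with a point per library and a grey line at the mean; the mural-like group of library 2 holds 2 cells. Cdh5, Pcdh12 and Pcdh17 peak in endothelial-like cells, Cdh1 in ductal-like cells and Pcdh19 in stellate- and mural-like cells, while Cdh17 is at 378 and 573 in ductal-like and 427 and 46.0 in unassigned cells.

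The counts for hormone-free cells changed from 9 higher and 23 lower adhesion genes to 6 higher and 30 lower when 2 cells of library 2 were left out, an alternative added after the data were seen, and 36.3% and 26.5% of all genes were then called higher and lower. These cells carried 177513 and 96154 UMIs over 12071 and 10403 genes, with neuronal genes among them, at 625 and 285 UMIs of Vip, 684 and 379 of Nos1 and 735 and 364 of Stmn2. Of glial markers, Sox10 had 2 and 4 UMIs, all 8 endocrine markers were present, and the cells are given no cell type here. Adhesion genes made up 0.716% and 0.683% of their UMIs, and 51 and 35 of the genes had a UMI.

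Several adhesion genes were found almost entirely in these 2 cells. They held 261 of the 266 UMIs of Lsamp in library 2 (98.1%), 90 of 95 of Cadm3 (94.7%) and 56 of 63 of Cntnap5a (88.9%). Library 1, without such cells, had 8, 5 and 2 UMIs of these genes. The same cells held 167 of 360 UMIs of Ncam2, 155 of 468 of Cntn1 and 390 of 6620 of Ncam1. Without them, Ncam2 was lower and not higher in hormone-free cells (log2 difference -1.73, adjusted p = 0.0134), as it was in library 1 alone (-1.96). Cntn1 turned in the same way, from 1.77 (adjusted p = 0.0304) to -2.65 (adjusted p = 0.00191), and with all cells DESeq2 did not call it. Pcdhb7 and Pcdhgb5 were no longer called, and Cadm4, Cntnap2, Dscam, Nrxn2, Nrxn3 and Pcdhga5 were called lower. The summed level of the 115 genes in hormone-free cells of library 2 was then 1538 in place of 2234, against 1303 in library 1. Cntn1 in hormone-free cells had no UMI in library 1 and 161 in library 2, of which 155 lay in these cells. Without them Ncam2 was also called between insulin only and Ppy only cells and between Gcg only and Ppy only cells.

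**Figure D5:**
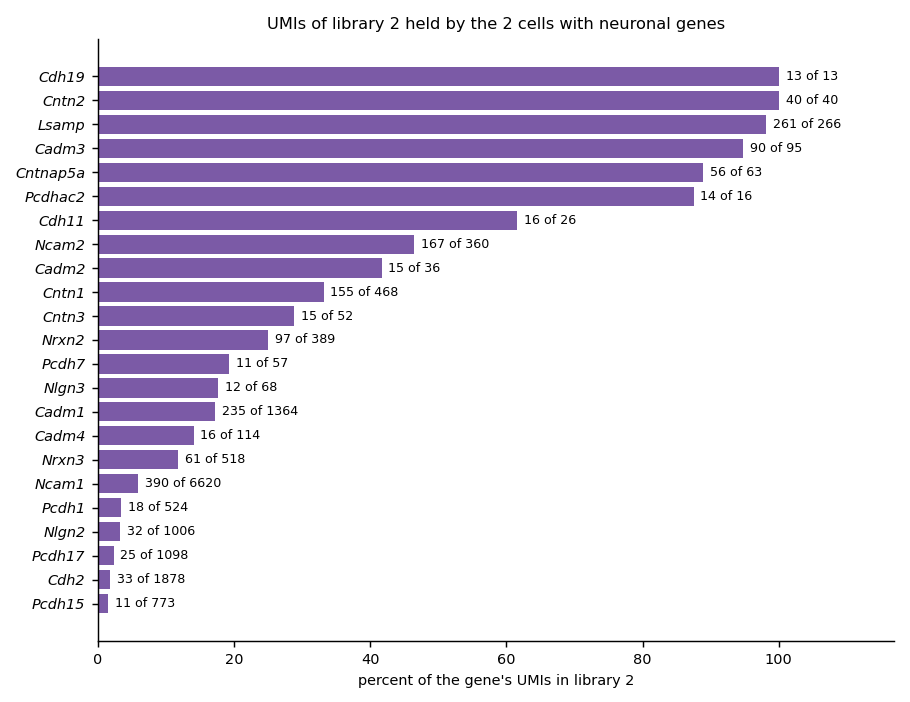
Share of each adhesion gene's UMIs in library 2 that lay in the 2 cells with neuronal genes, for 23 genes with at least 10 UMIs in them; the count over the total is printed beside each bar. Cntn2 and Cdh19 (rows of library 2 only) have all their UMIs there, Lsamp 98.1% and Cadm3 94.7%, while Cdh2 stays at 1.76%.

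Partners of these adhesion genes were read from lists of cadherin partners, of synaptic organisers and of the L1 family. Of 11 tested cadherin partners, 2 were higher and 2 lower in insulin only than in Gcg only cells, 0 and 2 in Gcg only than in Sst only cells, and 7 and 2 in hormone-free cells. Of all genes, 12.9% and 12.7%, 6.02% and 6.81%, and 35.2% and 24.7% were called in these comparisons. Nectin3, a nectin that binds beside cadherins, stood at 230 and 199 in insulin only cells, 160 and 111 in Sst only cells, 67.9 and 54.5 in Ppy only cells and 51.4 and 36.1 in Gcg only cells. Ctnnb1, which ties cadherins to the cell skeleton, was called in none of the 6 comparisons and stood at 37.7 to 63.7. It was higher in hormone-free cells, at 67.3 and 72.3 (log2 difference 0.75 ± 0.17, adjusted p = 0.00104).

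Of 24 tested synaptic organisers, 2 were higher and 5 lower in insulin only than in Gcg only cells, and 4 higher and 12 lower in hormone-free cells, beside the same shares of all genes (12.9% and 12.7%, 35.2% and 24.7%). Ptprd, a presynaptic receptor phosphatase, stood at 316 and 338 in Gcg only cells and at 78.6 or less in the other groups with a single hormone. Slitrk6, a postsynaptic partner of such phosphatases, stood at 169 and 265 in Sst only cells and 156 and 131 in insulin only cells, against 5.71 and 7.44 in Gcg only cells (log2 difference 4.45 ± 0.24 from insulin only to Gcg only cells, adjusted p = 5.49e-10). Lrrtm3, a neurexin ligand, was at 14.9 and 19.1 in Gcg only cells and at 0 and 0.421 in insulin only cells, while Lrrtm1 stood at 45.5 and 35.8 in Ppy only cells and 8.79 and 23.5 in Sst only cells, a pair not called (adjusted p = 0.238). Of 7 genes of the L1 family and their partners, Nrcam stood at 43.0 and 37.2 in Gcg only cells and at 10.9 or less elsewhere in the 4 groups, and Epb41l3, which binds contactin-associated proteins inside the cell, was higher in insulin only cells at 504 and 579 than in each other group with a single hormone.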

How the data were processed

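RevGel-seq counts of 2 technical libraries of mouse islets were used as deposited. The authors made the UMI counts, 1 table per library, with Cytonaut and UMI-tools, aligning reads to exons of GRCm38 (Ensembl 99), and no normalization was applied. Whether counting used strand is not given in the sources used here. The members, gene lists and tests were chosen with earlier results of these data known. Counts were summed per hormone group and library (8 groups, 16 sums, 8 residual degrees of freedom), leaving out the 5 hormone genes, and tested with edgeR 4.0.16 in R 4.3.3 (filterByExpr, TMM, quasi-likelihood, Benjamini-Hochberg over 14528 genes, threshold 0.05). Differences under one library alone use log2(level + 1). The libraries shared 0 barcodes, and Scrublet called 8 doublets in each, which were kept. On simulated data for insulin only against Gcg only cells (13274 genes), 65 of 100 genes changed by 1 on the log2 scale and 100 of 100 changed by 2 were recovered. Of the unchanged genes, 4 were called. The changed genes were drawn only from genes above a set mean level, with a common spread for all genes. The shares recovered therefore do not cover genes at low levels, among them several described here. Library numbers pair the sums, since a number is the same library; deviations of same-numbered sums correlated from -0.0857 to 0.142. Named genes were those higher (up to 7) or lower (up to 3) in 1 group with a single hormone than in each other, up to 6 higher and 3 lower in hormone-free cells, up to 3 per direction in cells with several hormones, and a fixed set of genes given whatever their result; Cdh9, Cdh22, Cntn3, Nrxn3, Pcdh1, Pcdh8, Pcdh15, Pcdhb7, Pcdhgb5 and genes of the 2 cells were added after their values were seen. Alternatives were other scalings, DESeq2 1.42.0, no filter, a replicate block, other hormone thresholds, doublets removed, equal cell numbers, and each library left out. Some genes are not reported here.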

Additional observations from a re-analysis of the deposited data

Results flagged for a closer look

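Cntn2, Cdh19 and Cdh20 had a row in the table of library 2 only and so entered no comparison. Cntn2, a contactin of axons, had 40 UMIs, all in the 2 cells with neuronal genes. Cdh19 had 13 UMIs, all in the same cells, and Cdh20 had 9, of which 6 lay in them. They were singled out because molecules were counted in rows the comparisons did not use.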

How the results depend on the processing

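Of 449 alternative values, 359 were held the same, 57 moved, 28 lost and 1 gained the call, and 4 reversed. A count of called genes was held the same when it stayed within a fixed ratio of the main count, whichever genes it held. Values from settings without a test could not be judged by the threshold. With 23 cells in each sum the number of adhesion genes called was 9 for insulin only against Gcg only, 9 against Sst only and 9 against Ppy only cells, 12 for Gcg only against Sst only, 4 for Gcg only against Ppy only, 17 for hormone-free cells and 1 for cells with insulin and another hormone, and those highest in 1 group numbered 0 for insulin only, 0 for Gcg only and 2 for Sst only cells. With all UMIs as the library size and no TMM factors, 21 were called between Sst only and Ppy only cells and 8 in cells with insulin and another hormone, with 1 highest in insulin only and 12 in Sst only cells. For Gcg and Ppy against Gcg only cells DESeq2 called 2 and no filter called 3, and no filter called 9 in cells with insulin and another hormone. No filter also called 48 for hormone-free cells, against 32, and 24 for insulin only against Ppy only cells, against 16. A hormone threshold of 0.5% left 3 highest in Sst only cells, and leaving out the 2 cells gave 8 calls in cells with insulin and another hormone. Reversed were Dscam for insulin only against Gcg only cells (0.00 with 23 cells per sum) and Ncam2 in hormone-free cells, at -1.73 without the 2 cells, -1.98 without the 3 cells of most UMIs, and from -1.96 to 3.18 with a library left out. Cntn1 in hormone-free cells, outside these values, also turned, from 1.77 to -2.65 without the 2 cells. The cause was not tested. The 23 cells per sum came from a single random draw, so its values also depend on which cells were drawn. With the library as a replicate block, the numbers of adhesion genes called were 21, 17, 16, 18, 12, 11, 32, 0, 0 and 5, against 20, 18, 16, 20, 12, 11, 32, 0, 0 and 5, and the calls it changed stand beside their genes. Leaving out a library left no residual degrees of freedom, so those values have no test. Sst only cells numbered 58 over both libraries, the fewest of the groups compared.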
